A study of Capra hircus with 8 samples.

Results

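The predicted piRNAs described here are those whose listed position lies in an LTR retrotransposon or a DNA transposon, and not in a LINE or SINE repeat. They were taken from the deposited small RNA table as every entry of type piRNA whose position text named neither LINE nor SINE. The rule found 1107 of 2888 predicted piRNAs (38.3%), of which 632 lay in LTR repeats and 475 in DNA transposons. The other 1781 lay in LINE repeats and 0 in SINE repeats.

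The study sequenced small RNA from mammary gland cells of the Lanshan dairy goat, grown in 3D culture, in 8 libraries that form 4 groups of 2. In overexpression, a virus brought in the gene of circRNA28250, a circular RNA. Cells labelled 5NC are read here as its control. In knockdown (labelled cKDmix), expression of circRNA28250 was inhibited, and cells labelled 3NC are read as its control. The pairing of each control follows the order of the groups in the design text, which does not state it outright. Levels of circRNA28250 were not analysed here. The labels do not say whether both libraries of a group were cultured separately, and a p-value therefore reflects library-to-library spread that could be technical.

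PIWI-interacting RNAs (piRNAs) are small RNAs, somewhat longer than miRNAs, that guide proteins of the PIWI branch of the Argonaute family. They are best known from the germline, where many derive from transposable elements and direct the silencing of those elements, and in most somatic tissues they are scarce. LTR retrotransposons, among them the endogenous retroviruses, copy themselves through an RNA intermediate, whereas DNA transposons move by excision and reinsertion, and most copies of both kinds in a mammalian genome are old remnants. The piRNAs here are software predictions, and the table holds no measure of PIWI binding.

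The table assigned 6588354 to 32066029 reads to a library, of which 2585701 to 15284800 belonged to named small RNAs (miRNAs, piRNAs and Rfam families). The libraries differed widely in composition before any grouping. In knockdown 2, LINE piRNAs held 91.8% of the named reads and one of them, the L1 piRNA novel_pir1385, held 82.2%, against a LINE share of 0.0656% to 0.392% in the other 7 libraries. In knockdown 1, ribosomal RNA held 69.6% of the named reads, against 2.39% to 10.2% in the other 7. The miRNA share was 0.801% in knockdown 2, 6.86% in knockdown 1, 11.4% in overexpression 2 and 44.7% to 80.3% in the other 5. As a check of the labelled tissue, 8 of 9 epithelial miRNAs were matched, with a summed level of 102 to 11011 per 1000000 miRNA reads across libraries, beside 287 to 76011 for 4 of 5 mesenchymal and smooth muscle miRNAs, 162 to 27125 for the endothelial miR-126, 592 to 14808 for 4 of 5 blood miRNAs and 129 to 53849 for 4 of 4 skeletal muscle miRNAs. Several of these lists moved with the groups. Per 1000000 miRNA reads, the mesenchymal list had 76011 and 37857 in knockdown and 11776 and 16223 in 3NC, miR-126 had 17943 and 27125 in knockdown and 473 and 464 in 3NC, and the blood list had 10741 and 14808 in knockdown and 2178 and 1036 in 3NC. The epithelial list had 2609 and 2311 in knockdown and 224 and 102 in 3NC. It had 105 and 728 in overexpression and 11011 and 739 in 5NC, where the mesenchymal list had 11422 and 10393 in overexpression and 287 and 3540 in 5NC. In these groups miR-126 had 261 and 7487 in overexpression and 162 and 185 in 5NC. The blood list had 1079 and 9060 in overexpression and 592 and 656 in 5NC. The skeletal muscle list had 129 and 4180 in overexpression, 130 and 941 in 5NC, 716 and 53849 in knockdown, and 146 and 2075 in 3NC. The part that these differences play in the piRNA values was not tested.

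All 3545 counts above 0 that the table holds for predicted piRNAs are of 10 reads or more, whereas known miRNAs have 1147 counts of 1 to 9. A piRNA at 0 in a library may therefore have had up to 9 reads there, and it is called unlisted rather than absent. Levels are given as CPM, reads per 1000000 named reads after TMM scaling (a factor per library that allows for composition), and 9 reads correspond to 0.694 to 5.81 CPM depending on the library. The factor of knockdown 2 is 0.101, so its levels without TMM scaling are lower than its CPM by that factor, and plain levels are given beside several of the results that they change.

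The table placed the 1107 piRNAs in 707 repeat copies on 43 reference sequences. Positions are those of the repeat copy as deposited. The genome build is not given in the sources used here, nor is whether starts count from 0 or 1. LTR piRNAs came from 460 copies with a median length of 364 bases (66 to 2626), and DNA transposon piRNAs from 247 copies with a median of 204 bases (32 to 1744), lengths being counted from the listed ends. Most copies gave 1 piRNA (607 of 707), while 100 copies gave several and held 500 piRNAs, so that piRNAs of the same copy share their source and are not independent. On the plus strand lay 607 piRNAs and on the minus strand 500, and 0 positions were listed on both strands. LTR piRNAs divided into 323 on plus and 309 on minus, and DNA transposon piRNAs into 284 and 191. Summed over the 8 libraries, a piRNA had 10 to 27689 reads with a median of 17, and 162 piRNAs had exactly 10, the least the table lists. The median was 16 reads for LTR, 17 for DNA transposon and 15 for LINE piRNAs.

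Very few of these piRNAs were seen in more than 1 library. Of the 1107, 941 (85.0%) were private to 1 library, 69 were listed in 2, 36 in 3, 26 in 4, 22 in 5, 5 in 6, 4 in 7 and 4 in all 8. Among LTR piRNAs 552 of 632 (87.3%) were private, among DNA transposon piRNAs 389 of 475 (81.9%), and among LINE piRNAs 1678 of 1781 (94.2%). Counting repeat copies instead, 648 of 707 (91.7%) were listed in 1 library and 5 in all 8, and the LINE figure was 1355 copies (93.4%). Of the 941 private piRNAs, 225 lay in copies that other libraries listed through a different piRNA.

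Overexpression 1 listed 181 of the piRNAs and overexpression 2 listed 33, while 5NC 1 listed 130 and 5NC 2 listed 146. Knockdown 1 listed 242 and knockdown 2 listed 544, while 3NC 1 listed 63 and 3NC 2 listed 152. The numbers private to a library were 84 and 3 in overexpression, 53 and 35 in 5NC, 189 and 513 in knockdown, and 6 and 58 in 3NC. Private piRNAs thus made up 94.3% of those listed in knockdown 2 and 78.1% in knockdown 1, against 9.09% to 46.4% in the other 6 libraries. LTR piRNAs listed in 1 library came mostly from knockdown 2 (351 of 552), and DNA transposon piRNAs came mostly from knockdown 2 (162 of 389) and knockdown 1 (110 of 389).

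**Figure D1:**
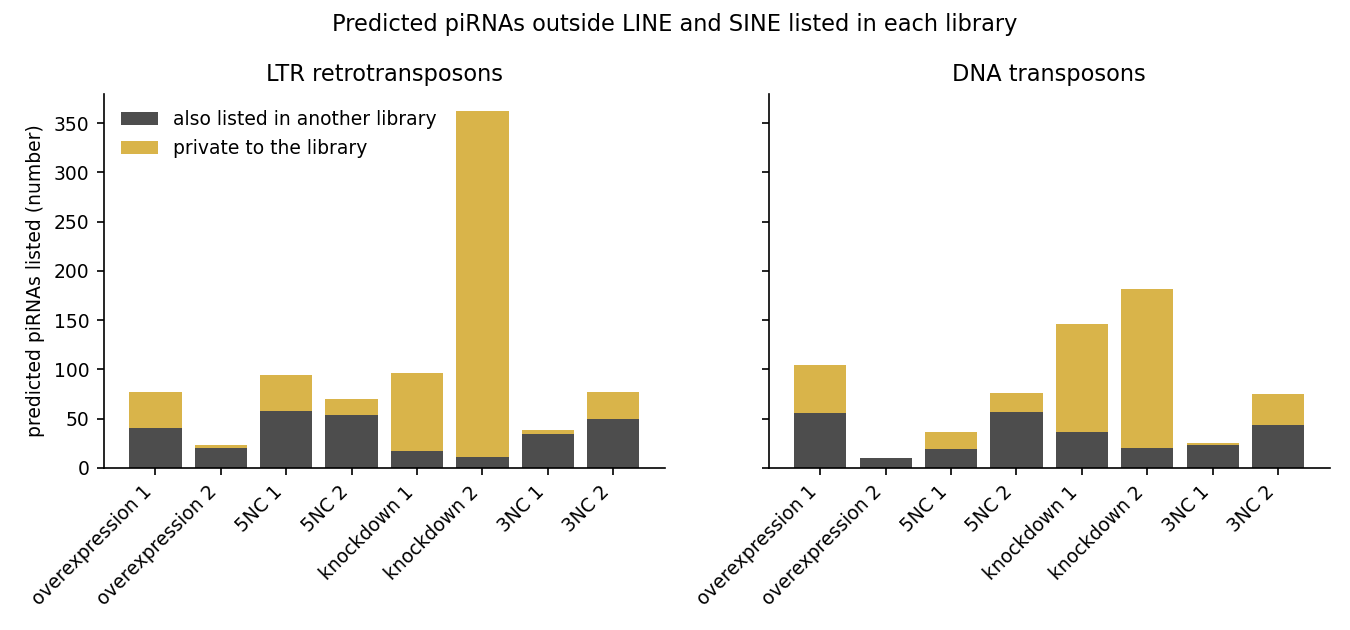
Number of predicted piRNAs listed in each library (y axis) for LTR retrotransposons and DNA transposons, split into those private to the library and those also listed in another. The 2 knockdown libraries list 242 and 544 piRNAs in all, and most of them are private.

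Many private piRNAs had few reads. In knockdown 2, 326 of its 513 private piRNAs had under 20 reads, and in knockdown 1, 94 of 189 did. They nevertheless held 94.97% of the reads of these piRNAs in knockdown 2, against 23.3% in knockdown 1 and 5.36% to 33.8% in the other 6 libraries.

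The number listed moved with depth and with the LINE piRNAs. When every library was thinned to 2585701 named reads and a piRNA needed 10 reads to count, overexpression kept 48 and 25, 5NC 73 and 81, knockdown 242 and 77, and 3NC 39 and 68. With LINE piRNAs left out and every library thinned to the 1255658 named reads that then remained in knockdown 2, the numbers were 19 and 8 in overexpression, 39 and 46 in 5NC, 135 and 544 in knockdown, and 20 and 28 in 3NC. The order of the 2 knockdown libraries thus turned on whether LINE reads were counted in the depth, while knockdown 1 listed more than each of the 6 libraries outside knockdown in both versions. Both versions were chosen after seeing the data.

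Libraries of the same group often listed different piRNAs. The overexpression libraries shared 19, which is 10.5% of those in overexpression 1 and 57.6% of those in overexpression 2. The 5NC libraries shared 55, or 42.3% and 37.7% of their lists. The knockdown libraries shared 25, or 10.3% of knockdown 1 and 4.60% of knockdown 2, and the 3NC libraries shared 46, or 73.0% and 30.3%. The largest overlap between any 2 libraries was across groups, 68 piRNAs in 5NC 2 and 3NC 2, or 46.6% and 44.7% of their lists. Overexpression 2 shared 26 of its 33 with 5NC 2 (78.8%).

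As a share of named reads, these piRNAs were a minor class in every library. In such bulk RNA, fewer cells that make a piRNA and less of it per cell cannot be told apart. They held 0.0846% (95% exact binomial interval 0.0825 to 0.0868) in overexpression 1 and 0.0253% (0.0237 to 0.0270) in overexpression 2. In 5NC they held 0.559% (0.553 to 0.565) and 0.190% (0.186 to 0.194). In knockdown they held 0.998% (0.986 to 1.01) and 0.387% (0.384 to 0.391), and in 3NC 0.0822% (0.0794 to 0.0851) and 0.150% (0.146 to 0.153). The intervals cover counting error only, since the reads carry no molecular identifiers and may be copies of 1 molecule. Each interval was narrow beside the gap between libraries of the same group.

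Measured against all predicted piRNA reads, they held 55.7% and 27.8% in overexpression, 73.6% and 69.9% in 5NC, 71.8% and 0.420% in knockdown, and 40.6% and 56.9% in 3NC. Knockdown 2 was low on this scale and high on the scale without LINE piRNAs, on which these piRNAs held 4.72% of its named reads and 1.002% of those of knockdown 1. The repeat classes also differed between libraries. LTR piRNAs held 46.4% and 79.5% of the reads of these piRNAs in overexpression, 90.0% and 72.3% in 5NC, 15.9% and 55.0% in knockdown, and 76.8% and 66.8% in 3NC. Knockdown 1 was the library in which DNA transposon piRNAs were most dominant.

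**Figure D2:**
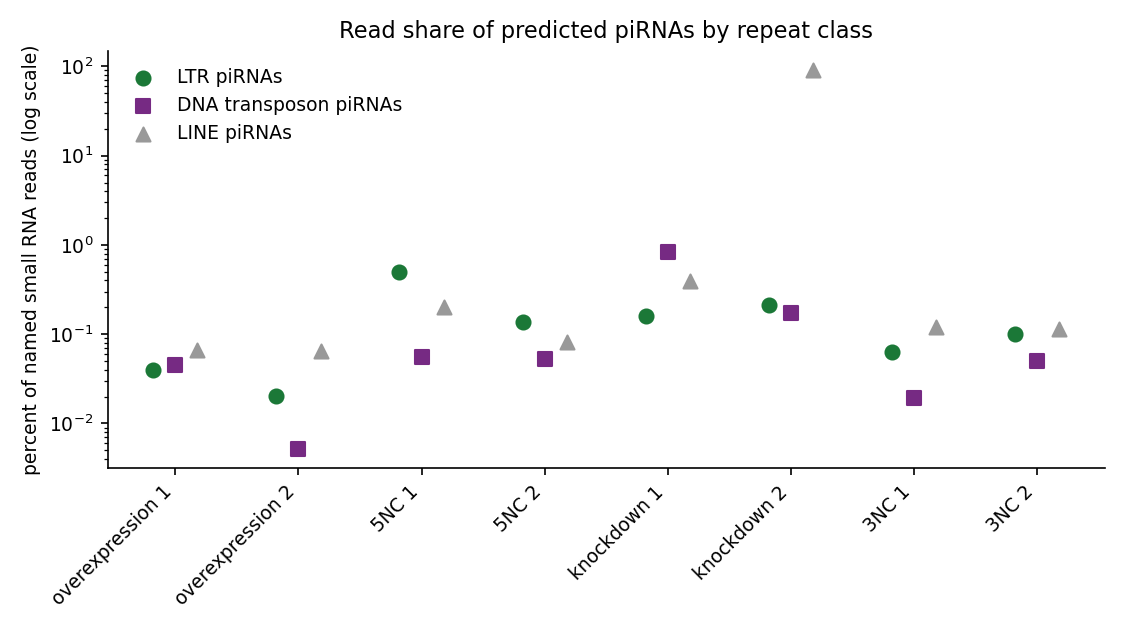
Share of named small RNA reads (y axis, percent, log scale) held by LTR, DNA transposon and LINE piRNAs in each of the 8 libraries, 1 point per class and library. LINE piRNAs reach 91.8% in knockdown 2, where the LTR share is 0.213% and the DNA transposon share 0.174%.

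Each of the 3 comparisons of shares set 2 libraries against 2, for which the smallest p of an exact two-sided permutation test is 0.333, so none could pass. Overexpression averaged 0.0550% ± 0.0419 against 0.374% ± 0.261 in 5NC (SD, n = 2 each), a ratio of 0.147, and the groups did not overlap. Without novel_pir1793, the piRNA with most reads, the difference of the mean log2 share was -2.07, beside -2.81 with it. LTR piRNAs averaged 0.0297% ± 0.0136 in overexpression and 0.320% ± 0.259 in 5NC, and DNA transposon piRNAs averaged 0.0253% ± 0.0284 in overexpression and 0.0541% ± 0.0022 in 5NC. Knockdown averaged 0.693% ± 0.432 against 0.116% ± 0.0477 in 3NC, a ratio of 5.98 without overlap. The epithelial, mesenchymal, miR-126 and blood lists given above were also higher in both knockdown libraries than in both 3NC libraries. The LTR shares were 0.186% ± 0.0389 in knockdown and 0.0816% ± 0.0261 in 3NC (ratio 2.28), and the DNA transposon shares 0.507% ± 0.471 in knockdown and 0.0344% ± 0.0216 in 3NC (ratio 14.8). The controls differed too, with 0.374% ± 0.261 in 5NC and 0.116% ± 0.0477 in 3NC, a ratio of 3.23. Without novel_pir1793 this difference of the mean log2 share was 0.92, beside 1.55 with it. All 9 tests, over both classes together and each alone, gave an exact permutation p of 0.333, also after Benjamini-Hochberg adjustment. The comparisons with 5NC share the 5NC libraries, and those with 3NC share the 3NC libraries.

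Among families of endogenous retroviruses and their relatives, ERVL-MaLR (non-autonomous mammalian LTR elements related to ERVL) had the most piRNAs, 300 from 204 copies. Their summed level was 52.8 and 121 CPM in overexpression, 229 and 140 CPM in 5NC, 527 and 9202 CPM in knockdown, and 47.8 and 90.0 CPM in 3NC. Knockdown 2 stood above the rest, also without TMM scaling (933 per 1000000 named reads, against 76.8 to 580 in the other 7), and listed 142 of them, 138 of which no other library listed. ERVL, an old class of endogenous retrovirus, had 218 piRNAs from 170 copies. Its summed level was 119 and 163 CPM in overexpression, 2692 and 575 CPM in 5NC, 254 and 4881 CPM in knockdown, and 316 and 443 CPM in 3NC. The order of knockdown 2 and 5NC turned on the scaling, since without TMM the ERVL sums per 1000000 named reads were 279 and 495 in knockdown and 4100 and 979 in 5NC.

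ERV1 piRNAs, from gammaretrovirus-like elements, numbered 79 and had 38.2 and 11.3 CPM in overexpression, 380 and 85.5 CPM in 5NC, 626 and 628 CPM in knockdown, and 20.5 and 46.5 CPM in 3NC. This was the large LTR family in which the 2 knockdown libraries had close sums, although 48 ERV1 piRNAs were listed in knockdown 2 and 12 in knockdown 1, and without TMM the sums were 688 and 63.7 per 1000000 named reads. ERVK (betaretrovirus-like) and Gypsy, an LTR retrotransposon family outside the vertebrate retroviruses, had 12 piRNAs each. ERVK reached 3033 CPM and Gypsy 2691 CPM in knockdown 2, against at most 12.0 and 20.4 CPM in any other library. Without TMM, ERVK had 308 and Gypsy 273 per 1000000 named reads in knockdown 2, against at most 15.5 and 22.4 in any other library. In knockdown 2 each sum was mostly 1 piRNA. For ERVK, novel_pir754 had 4613 of 4702 reads, and for Gypsy, novel_pir220 had 4024 of 4172.

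Of the DNA transposons, the hAT-Tip100 family had 200 piRNAs from 33 copies, and hAT-Charlie had 165 from 125. Both are hAT elements, a superfamily of cut-and-paste transposons. The hAT-Tip100 sums were 180 and 41.0 CPM in overexpression, 3.35 and 209 CPM in 5NC, 7243 and 2839 CPM in knockdown, and 67.5 and 192 CPM in 3NC. The hAT-Charlie sums were 34.3 and 24.3 CPM in overexpression, 346 and 74.7 CPM in 5NC, 177 and 11243 CPM in knockdown, and 24.4 and 77.3 CPM in 3NC. In CPM both knockdown libraries were above the other 6 for hAT-Tip100, and knockdown 2 alone for hAT-Charlie. Without TMM, hAT-Tip100 stood above the other 6 in knockdown 1 only, with 7969 and 288 per 1000000 named reads in knockdown against 5.10 to 356 in those 6, while knockdown 2 stayed the highest for hAT-Charlie (1140, against 16.5 to 526 in the other 7). Tigger elements, relatives of the Tc1 and mariner transposons, had 56 piRNAs with 162 and 843 CPM in knockdown and at most 10.04 CPM elsewhere. Without TMM the Tigger sums (DNA/TcMar-Tigger) were 178 and 85.4 per 1000000 named reads in knockdown and at most 15.3 elsewhere, so the 2 knockdown libraries changed places. Another 9 family names, with 26 piRNAs between them, were listed in knockdown 2 alone, among them hAT-Blackjack with 8 piRNAs. Several of these names carry a question mark (LTR?, LTR/Gypsy?, LTR/ERVL?, DNA? and DNA?/hAT-Tip100?), read here as an uncertain assignment. Other libraries listed the same classes or families without the mark. Of all 1107 piRNAs, 12 had such a name.

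**Figure D3:**
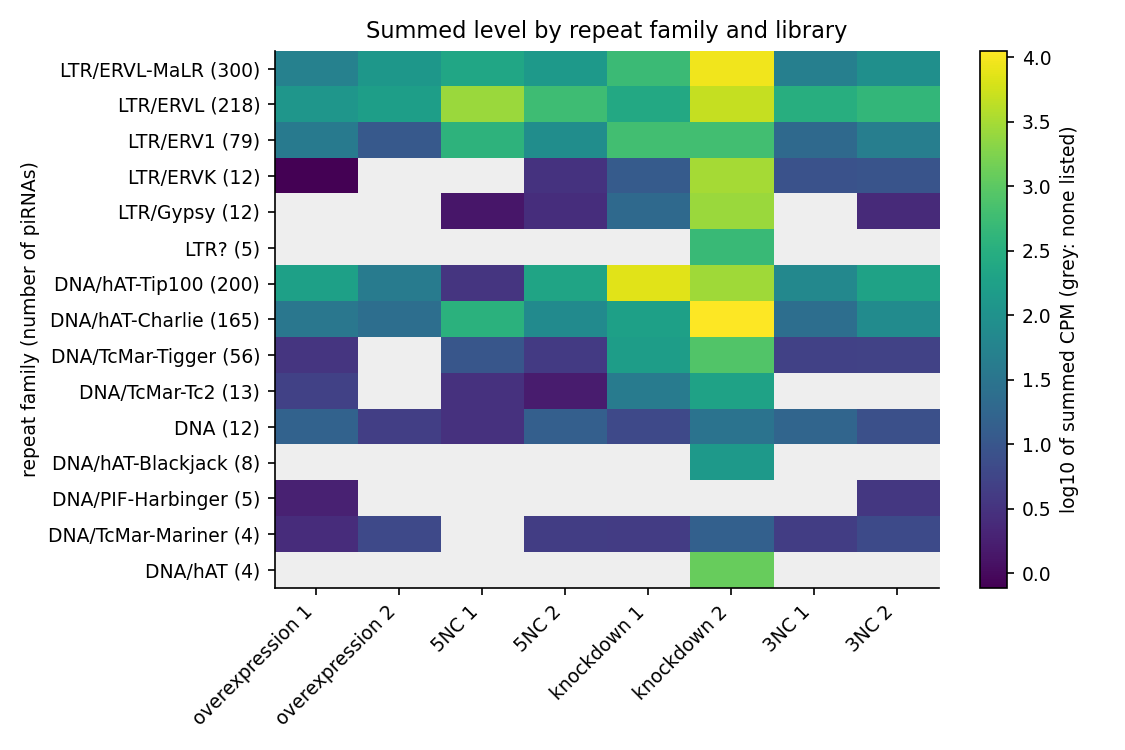
Summed level of the piRNAs of each repeat family with at least 4 piRNAs (rows, number of piRNAs in brackets) in each library (columns), coloured by log10 of CPM, with grey where none was listed. On this TMM-scaled measure hAT-Tip100 is highest in knockdown 1 (7243 CPM), and hAT-Charlie (11243 CPM) and ERVL-MaLR (9202 CPM) are highest in knockdown 2; without TMM the ERVL sum is highest in 5NC 1.

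A single hAT-Tip100 copy held 156 of the 1107 piRNAs (14.1%), more than any other copy. It lies on the plus strand of the scaffold NW_017189624.1 from 1283 to 2059, a stretch of 777 bases. Its piRNAs had 156 and 36.9 CPM in overexpression, 0 and 187 CPM in 5NC, 7142 and 1505 CPM in knockdown, and 63.2 and 169 CPM in 3NC. They made up 78.7% of the reads of all these piRNAs in knockdown 1 and 3.94% in knockdown 2, where other copies dominated. In the other libraries the share was 34.4% and 9.91% in overexpression, 0% and 16.7% in 5NC, and 12.4% and 19.1% in 3NC.

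Which piRNAs of the copy were listed also differed between libraries. Only knockdown libraries listed 60 of the 156, only other libraries listed 67, and 29 were listed in both kinds. The 60 held 62.0% of the copy's reads in knockdown 1 and 37.5% in knockdown 2. Of all 156, 14 were listed in both knockdown libraries, and 5 of these in no other library. Of all named reads the copy held 0.786% and 0.0153% in knockdown, 0.0291% and 0.00251% in overexpression, 0% and 0.0318% in 5NC, and 0.0102% and 0.0286% in 3NC, so that on this scale only knockdown 1 stood above the other libraries. With LINE piRNAs left out of the total, the copy held 0.789% and 0.186% of named reads in knockdown, while ribosomal RNA held 69.9% and 29.1%. In the other 6 libraries the copy held 0% to 0.0318% and ribosomal RNA 4.89% to 10.2% on that scale. The part of ribosomal RNA in the level of this copy was not tested.

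**Figure D4:**
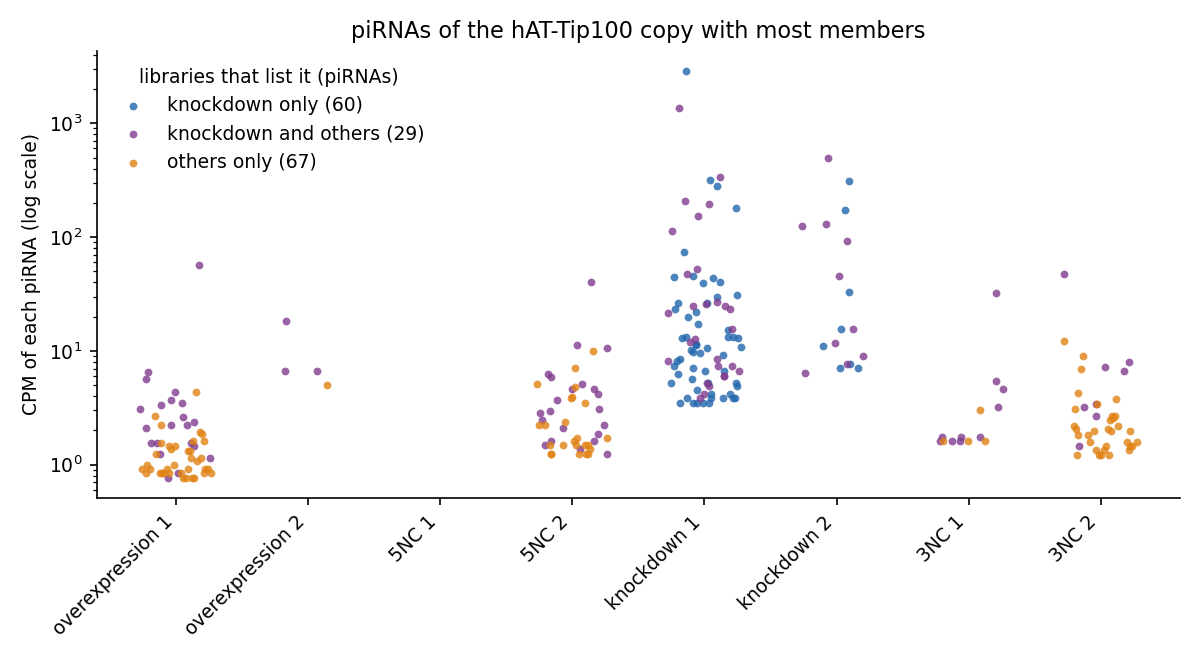
Level of each piRNA of the hAT-Tip100 copy (points, CPM, log scale) in each library that listed it, coloured by whether knockdown libraries alone, other libraries alone or both listed it. The highest points are in knockdown 1, and 5NC 1 has none.

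The copy with the next most piRNAs was an ERVL-MaLR element at NC_030809.1:84287360-84287742 on the plus strand, with 36. It was listed in all 8 libraries, at 16.3 and 51.1 CPM in overexpression, 65.1 and 58.4 CPM in 5NC, 7.38 and 15.5 CPM in knockdown, and 19.1 and 47.1 CPM in 3NC. None of its 36 piRNAs was itself listed in all 8, so the copy was shared through different predicted piRNAs. All 5 copies listed in every library were LTR copies, 3 of them ERVL.

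Only 4 piRNAs were listed in all 8 libraries, 3 of the ERVL family and 1 of ERV1. The highest was novel_pir1793, in an ERVL copy of 225 bases at NC_030820.1:58153426-58153650 on the plus strand. Its level was 14.3 and 77.9 CPM in overexpression, 2444 and 205 CPM in 5NC, 7.38 and 15.5 CPM in knockdown, and 58.7 and 232 CPM in 3NC. The 4 values of 5NC and 3NC ran from 58.7 to 2444 CPM, both knockdown values lay below them, and the overexpression values lay below both 5NC values. The overexpression and 3NC values overlapped in CPM but not without TMM (26.7 and 53.0 per 1000000 named reads in overexpression, 94.3 and 392 in 3NC), and the knockdown values without TMM were 8.12 and 1.57. In 5NC 1 this piRNA alone held 66.6% of the reads of all 1107.

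The ERV1 piRNA novel_pir2402, from a copy of 686 bases with 12 piRNAs at NC_030830.1:25903459-25904144, had 20.4 and 11.3 CPM in overexpression, 233 and 55.6 CPM in 5NC, 520 and 43.9 CPM in knockdown, and 11.1 and 19.7 CPM in 3NC. Both knockdown values and both 5NC values lay above every overexpression and 3NC value. Without TMM this held for 5NC and knockdown 1, and knockdown 2 was the lowest of all with 4.45 per 1000000 named reads. The other two came from 1 ERVL copy, at NC_030813.1:13684649-13685135 on the minus strand. Of these, novel_pir1200 had 40.8 and 17.6 CPM in overexpression, 9.94 and 58.2 CPM in 5NC, 32.3 and 12.3 CPM in knockdown, and 20.5 and 57.4 CPM in 3NC, so every group overlapped every other. For novel_pir1201 the levels were 1.08 and 6.28 CPM in overexpression, 7.53 and 15.6 CPM in 5NC, 6.68 and 11.6 CPM in knockdown, and 1.76 and 53.6 CPM in 3NC. Without TMM its knockdown values were 7.35 and 1.18 per 1000000 named reads.

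Of the 10 piRNAs with the highest mean CPM over the 8 libraries, 7 were listed in knockdown 2 alone. This rested on the TMM scaling, since of the 10 with the highest mean level without TMM, a ranking added after seeing the data, 1 was private to knockdown 2, and novel_pir1793 led with 581 per 1000000 named reads. The hAT-Charlie piRNA novel_pir1929, at NC_030822.1:69383587-69384143, had 12600 reads there (8128 CPM). The ERVK piRNA novel_pir754 had 4613 reads, the ERVL-MaLR piRNA novel_pir1099 4287 and the Gypsy piRNA novel_pir220 4024. Another pair of ERVL-MaLR piRNAs from the same copy, novel_pir2005 and novel_pir2003, had 3314 and 2063 reads, and the hAT piRNA novel_pir1116 had 1874. In knockdown 1, the other library of that group, all 7 were unlisted, which at 9 reads allows up to 3.16 CPM.

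**Figure D5:**
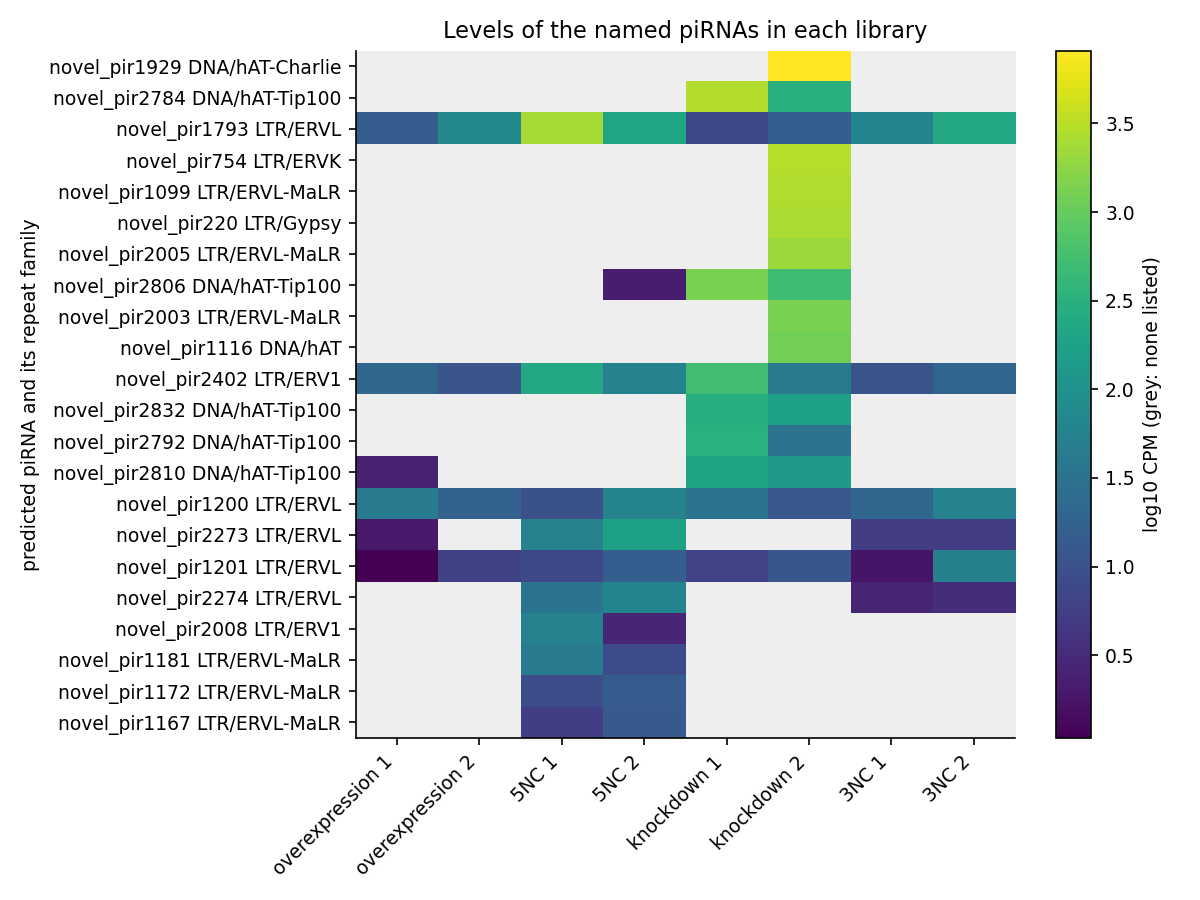
Level of each named piRNA (rows, with repeat family) in each library (columns), coloured by log10 of CPM, with grey where the library did not list it. The 4 piRNAs without a grey cell are novel_pir1793, novel_pir2402, novel_pir1200 and novel_pir1201.

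Reads were concentrated in a few piRNAs in every library. The 10 highest held 42.6% and 60.0% of the reads of these piRNAs in overexpression, 86.8% and 59.7% in 5NC, 70.8% and 62.7% in knockdown, and 66.2% and 57.5% in 3NC. The leading piRNA was novel_pir1793 in overexpression 2, both 5NC libraries and 3NC 2. It was novel_pir2784 in knockdown 1 (31.7%), novel_pir1929 in knockdown 2 (21.3%), novel_pir2770 of the large hAT-Tip100 copy in overexpression 1 (12.6%) and the ERVL piRNA novel_pir1897 in 3NC 1 (30.9%). The last of these, with 986 reads, was unlisted in the other 7 libraries, and both novel_pir2770 and novel_pir1897 were singled out after their values were seen.

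Differences between groups were tested with edgeR's quasi-likelihood test over all 957 named small RNAs that passed a filter on low counts. Of the 1107 piRNAs, 141 passed it, 71 LTR and 70 DNA transposon, 46 of them from the large hAT-Tip100 copy. The rest were too rarely listed to be tested there and are described by their counts alone.

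Overexpression against 5NC gave no piRNA past an adjusted p of 0.05 (0 of 141, with 0% of all 957 features called). Without adjustment 13 of 141 (9.22%) were under 0.05, 2 higher and 11 lower in overexpression, against 8.46% of all features (2.09% higher and 6.37% lower), so their share was near that of all features. DESeq2 called 2 of 1107, both lower in overexpression, against 0.0627% of the 4786 features it tested. These were novel_pir952 and novel_pir953, named after their values were seen, from 1 hAT-Charlie copy, and both were listed in 5NC 1 alone with 1030 and 1249 reads.

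The 5 piRNAs with the lowest p in this comparison did not pass the test, and all were LTR piRNAs. The ERVL piRNA novel_pir2274 was unlisted in overexpression and had 33.3 and 60.9 CPM in 5NC, at least 21.1-fold lower in overexpression if 9 reads are allowed in each library there (edgeR adjusted p = 0.47). From the same copy, at NC_030828.1:57813067-57813362, novel_pir2273 had 2.004 CPM in overexpression 1, was unlisted in overexpression 2, and had 56.3 and 173 CPM in 5NC. Its log2 fold change was -6.66 ± 1.85 (SE, edgeR adjusted p = 0.47), with the unlisted count taken as 0. Allowing 9 reads in overexpression 2, which is 3.77 CPM, would make the difference smaller. Neither piRNA overlapped between the groups. The ERVL-MaLR piRNA novel_pir1181 was unlisted in overexpression and had 44.1 and 8.17 CPM in 5NC. The ERV1 piRNA novel_pir2008 was unlisted in overexpression and had 57.3 and 2.85 CPM in 5NC. The bounds on their group means were 11.7-fold and 13.5-fold lower. For novel_pir2008 the 5NC 2 value lay below the 3.77 CPM that 9 reads allow in overexpression 2, so its bound rested on 5NC 1. Only 5NC libraries listed novel_pir1181 and novel_pir2008, which passed the filter on low counts through them. For novel_pir1793 the log2 fold change was -4.85 ± 1.62 (SE, edgeR adjusted p = 0.47), and the 5NC values of 2444 and 205 CPM were themselves far apart.

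By listing alone, 26 piRNAs were in both 5NC libraries and neither overexpression library, 0 were in both overexpression libraries and neither 5NC library, and 9 were in all 4. Over all 2888 predicted piRNAs the shares were 1.35% in both 5NC libraries alone and 0.0346% in both overexpression libraries alone, beside 2.35% and 0% here, and LINE piRNAs had 13 and 1 of 1781. Of the 26, 18 were LTR and 8 DNA transposon piRNAs. Overexpression 2 listed 33 piRNAs in all, which limits the number that overexpression could have shared.

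Knockdown against 3NC also gave no piRNA past the edgeR test (0 of 141, with 0% of all features called). Without adjustment 20 of 141 (14.2%) were under 0.05, 11 higher and 9 lower in knockdown, against 15.0% of all features (8.36% higher and 6.69% lower). DESeq2 called 25 of 171 (14.6%), 13 higher and 12 lower in knockdown, against 10.3% of the 1075 features it tested. Of the 13 higher ones, 11 were listed in knockdown 2 alone, and the other two, novel_pir2784 and novel_pir2806, were listed in both knockdown libraries. Of the 12 lower ones, 11 were listed in both 3NC libraries and 1, novel_pir1897, in 3NC 1 alone. The edgeR test called 6 without TMM (11 of all 957 features) and 23 of 1107 without the filter on low counts (82 of all 4786), all of them higher in knockdown.

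The 5 piRNAs with the lowest p all came from the large hAT-Tip100 copy, and all were listed in both knockdown libraries and neither 3NC library. They passed the filter on low counts through the knockdown libraries, where they were high. Their p-values and bounds are therefore given as description and not as separate evidence of a difference. For novel_pir2784 the levels were 2873 and 309 CPM in knockdown, at least 1250-fold above 3NC if 9 reads are allowed in each 3NC library (edgeR adjusted p = 0.24, DESeq2 adjusted p = 0.0268). For novel_pir2806 they were 1353 and 500 CPM in knockdown, a bound of 728-fold (edgeR adjusted p = 0.24, DESeq2 adjusted p = 0.0321), and 5NC 2 had 2.10 CPM. The other three had lower levels, and DESeq2 did not call them. In knockdown, novel_pir2832 had 279 and 174 CPM, novel_pir2792 had 320 and 32.9 CPM, and novel_pir2810 had 195 and 129 CPM, with bounds of 178-fold, 139-fold and 127-fold. Without TMM the bounds were 763-fold for novel_pir2784, 368-fold for novel_pir2806, 77.5-fold for novel_pir2832, 84.95-fold for novel_pir2792 and 54.5-fold for novel_pir2810, since the levels in knockdown 2 were lower. All 5 were higher in knockdown 1, the library in which ribosomal RNA held 69.6% of named reads, than in knockdown 2.

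Among those lower in knockdown, novel_pir1793 had 7.38 and 15.5 CPM in knockdown and 58.7 and 232 CPM in 3NC, a log2 fold change of -3.67 ± 1.54 (SE, edgeR adjusted p = 0.33, DESeq2 adjusted p = 0.0356). It did not overlap between the groups. The ERVL pair novel_pir2273 and novel_pir2274, from the same copy and on another reference sequence than novel_pir1793, behaved alike in listing. In knockdown both were unlisted, and in 3NC novel_pir2273 had 5.46 and 5.38 CPM and novel_pir2274 had 2.73 and 3.43 CPM. Bounds compare group means, with 9 reads allowed in each knockdown library, which is 3.16 and 5.81 CPM. By its mean, novel_pir2273 was at least 1.21-fold lower in knockdown (DESeq2 adjusted p = 0.0382, edgeR adjusted p = 0.28). Both its 3NC values nevertheless lay below the 5.81 CPM allowed in knockdown 2. For novel_pir2274 the 3NC mean of 3.08 CPM lay below the mean allowed in knockdown, so CPM gave no bound (DESeq2 adjusted p = 0.0735, edgeR adjusted p = 0.28). The limit of 5.81 CPM rests on the TMM factor of knockdown 2, 0.101, and without TMM it is lower by that factor. The plain levels in 3NC, without TMM, were 8.76 and 9.10 for novel_pir2273 and 4.38 and 5.79 for novel_pir2274. Bounds without TMM were not computed for this pair.

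By listing, 13 piRNAs were in both knockdown libraries and neither 3NC library, 11 DNA transposon and 2 LTR piRNAs. Most of the 11 came from the single large hAT-Tip100 copy, among them 5 that no library outside knockdown listed, so they are not independent. Conversely 30 were in both 3NC libraries and neither knockdown library, 20 LTR and 10 DNA transposon piRNAs, and 10 were in all 4. In CPM, 9 reads are 3.16 and 5.81 in knockdown but 1.44 and 1.10 in 3NC. A piRNA at the same CPM in both groups could therefore be listed in 3NC and unlisted in knockdown. Over all 2888 predicted piRNAs the shares were 0.589% in both knockdown libraries alone and 1.49% in both 3NC libraries alone, beside 1.17% and 2.71% here, and LINE piRNAs had 4 and 13 of 1781. A further 719 were listed in 1 knockdown library and neither 3NC library, and 513 of these were the private piRNAs of knockdown 2. Among LINE piRNAs 1433 of 1781 were listed in that way.

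The 2 controls were compared in the same way. With 5NC against 3NC, 0 of 141 piRNAs passed the edgeR test (0% of all features called), and 11 (7.80%) were under 0.05 without adjustment, 10 higher and 1 lower in 5NC, against 7.42% of all features (6.58% higher and 0.836% lower). DESeq2 called 3 of 1107 against 0.0836% of all features, novel_pir952 and novel_pir953 higher and novel_pir1897 lower in 5NC, each listed in 1 library.

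The 5 with the lowest p were again LTR piRNAs and did not pass (edgeR adjusted p = 0.57 for each). Of these, novel_pir1181, novel_pir1172 and novel_pir1167 came from 1 ERVL-MaLR copy at NC_030813.1:80158318-80158612 and were unlisted in 3NC. In 5NC, novel_pir1172 had 8.79 and 14.6 CPM and novel_pir1167 had 5.75 and 12.9 CPM. The bounds over 3NC were 20.6-fold for novel_pir1181, 9.19-fold for novel_pir1172 and 7.32-fold for novel_pir1167. For novel_pir2008, also unlisted in 3NC, the bound was 23.6-fold, and novel_pir2274 had 33.3 and 60.9 CPM in 5NC against 2.73 and 3.43 CPM in 3NC, a log2 fold change of 3.93 ± 1.42 (SE). Apart from novel_pir2274, these piRNAs were listed in the 5NC libraries only and passed the filter on low counts through them. In listing, 16 piRNAs were in both 5NC libraries and neither 3NC library, 5 in both 3NC libraries and neither 5NC library, and 18 in all 4. Over all 2888 predicted piRNAs the shares were 0.796% in both 5NC libraries alone and 0.312% in both 3NC libraries alone, beside 1.45% and 0.452% here, and LINE piRNAs had 7 and 4 of 1781.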

How the data were processed

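Small RNA reads of 8 libraries were counted per feature by the authors, and the deposited counts are raw whole numbers per the file headers. The TPM values the authors deposited are the count scaled to a fixed sum per column, and they were not used. The aligner, the piRNA predictor and the treatment of reads with several matches are not named in the labels, and piRNAs of the same copy or family may share reads and are uncertain one by one.

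Mature and hairpin rows of a miRNA name were summed, which left 4786 named features. Left out were 4 pooled classes (reads in exons, introns, repeats and between genes), with 44.3% to 63.1% of each library. TMM factors ran from 0.101 to 1.87. The count test was that of edgeR 4.0.16 in R 4.3.3 (filterByExpr at a minimum count of 10, robust quasi-likelihood fit to all 8 libraries by group, 4 residual degrees of freedom, two-sided p adjusted by Benjamini-Hochberg over the 957 features kept, threshold 0.05). The common dispersion was 1.43. DESeq2 1.42.0 was the alternative, and its missing adjusted p-values stayed missing. Each SE of a log2 fold change is approximate, its size over the root of the F statistic. A fold against an unlisted group is a lower bound on the ratio of group means, with 9 reads in each library of the unlisted group. Shares were compared by exact permutation in scipy 1.17.1. The fit was tested on simulated data whose dispersion was far below 1.43, so that run does not measure the power of the test here.

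The piRNAs, lists and tests were chosen with earlier results of these data known. Named piRNAs were those past the test (where fewer than 3 passed, the 5 with the lowest p), the 10 highest by mean CPM, the top 2 of each class, those in all 8 libraries and the 3 private ones with most reads. Detection minimums, denominators, scalings, filters, a replicate block and left-out libraries were varied.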

Additional observations from a re-analysis of the deposited data

How the results depend on the processing

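The number past the edgeR test stayed at 0 in all 3 comparisons under DESeq2 size factors, miRNA totals and fits to 4 libraries, and when each library was left out (0 to 0). The DESeq2 test called 2 for overexpression against 5NC, 25 for knockdown against 3NC and 3 for 5NC against 3NC. For knockdown against 3NC, totals without TMM called 6 and no filter on low counts called 23. With the replicate number as a block, 6 were called for knockdown against 3NC, all higher in knockdown, and 0 in the other two comparisons. Same-numbered libraries deviated together with correlations of -0.013 to 0.19, so the numbers were not taken to pair the libraries. Scaling moved the median log2 fold change of all features in knockdown against 3NC, which was 0 with TMM, -1.56 without it and 1.65 with miRNA totals.

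The difference of the mean log2 share, -2.81 for overexpression against 5NC, was -1.50 over miRNA reads and -3.69 to -1.94 with a library left out. For knockdown against 3NC it was 2.49, and it was 6.89 over miRNA reads and 1.80 to 3.17 with a library left out. Under alternatives chosen after seeing the data it was 4.29 without LINE piRNAs in the total, 4.79 over TMM effective sizes and 1.59 without the large hAT-Tip100 copy. Without the piRNA with most reads it was -2.07 for overexpression, 2.79 for knockdown and 0.92 for 5NC against 3NC. For 5NC against 3NC it was 1.55, and 0.77 to 2.33 with a library left out. The direction held in every alternative run. The cause of these shifts was not tested.

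Minimums of 3 and 10 reads changed no count, since the table lists no piRNA under 10 reads. Private piRNAs numbered 941, and 436 without knockdown 2. Thinned to the smallest total with 10 reads required, 347 were private and 0 were in all 8 libraries, and the numbers listed were 48 (overexpression 1), 73 and 81 (5NC), 77 (knockdown 2) and 39 and 68 (3NC). With LINE piRNAs left out as well, 2 were in all 8, and the numbers listed were 19 and 8 (overexpression), 39 and 46 (5NC), 135 (knockdown 1) and 20 and 28 (3NC). In all, 107 alternatives stayed within the spread between libraries or 1.5 times the count, 28 moved, and 0 reversed.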
